A study of Mus musculus with 39 samples.

Results

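The type I interferon response genes described here are 39 listed genes that type I interferon is known to switch on. A gene counted as measured where a probe set carried its symbol and no other, and for Ifi35 and Lgals3bp, which had 2 such probe sets, the one with the higher mean was kept. This gave 35 of the 39 genes, among 22180 genes measured by the same rule. Dtx3l, Oas1a and Ifi27l2a lay only on probe sets that name several genes, and Ifi44 was not analysed here.

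RNA came from CD45.1+ cells, the transplanted donor cells, sorted from the bone marrow of 39 mice at the end stage, with 1 array per mouse. The 36 leukaemias all carried AE9a, a shortened form of the AML1-ETO fusion protein of t(8;21) acute myeloid leukaemia. In the AE9a arm the microRNA miR-126 was left as it was, in AE9a+miR-126 it was added, and in miR-126KO+AE9a, below the knockout arm, it was knocked out. Each arm was passaged through recipient mice 4 times with 3 mice at each passage, and 3 mice of the first passage were the normal controls. What the donor cells of those controls carried is not given in the labels. Those 3 controls, given as sorted in the same way, are shared by every comparison with normal marrow. The labels name neither the vector nor the mouse strain and age, and they do not say which donor leukaemia seeded which mouse. The ± of a difference is therefore an error over recipient mice, from 1 spread per gene pooled over all 13 groups. It does not show how far the mice of the compared groups differ. Cells were sorted as a mixture, so fewer cells of a type and less RNA per cell cannot be told apart.

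Type I interferons are secreted proteins that bind a receptor made of IFNAR1 and IFNAR2. The kinases JAK1 and TYK2 then phosphorylate STAT2, which acts with IRF9 in a complex that binds a short element in the promoters of the response genes. The products sense viral RNA, tag proteins with ISG15, degrade or edit RNA and block viral entry and budding, and in marrow the same response is known to draw resting blood stem cells into cycle.

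The core of that element was searched as GAAA, then 2 bases of any kind, then GAAA, on either strand, in the 250 bases before each RefSeq gene start of build GRCm38.p6. It stood in 10 of the 28 members with such a window (35.7%), against 936 of 27025 genes with a window (3.46%), and a member or gene counted once whatever the number of its windows. The 10 members were Stat2, Isg15, Oas1a, Oas1g, Oas3, Ifit1, Ifit3, Rsad2, Bst2 and Trim30a. A match is a string of letters and was not tested as a binding site. The stretches around the matches are given for the 5 of these genes whose values follow array by array, each 5′ to 3′ on the gene's own strand with the match in capitals. Isg15 lies at chr4:156200840-156200931 on the minus strand and holds 3 overlapping matches, and Bst2 lies at chr8:71537552-71537637 on the minus strand and holds 2. Stat2 at chr10:128270248-128270320 on the plus strand, Rsad2 at chr12:26456528-26456607 on the minus strand and Ifit1 at chr19:34640750-34640848 on the plus strand hold the element as its reverse complement, once, once and in 2 separate copies.
Isg15: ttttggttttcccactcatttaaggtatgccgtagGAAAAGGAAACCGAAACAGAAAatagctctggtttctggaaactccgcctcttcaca
Bst2: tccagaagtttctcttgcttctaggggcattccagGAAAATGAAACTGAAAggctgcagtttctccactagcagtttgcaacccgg
Stat2: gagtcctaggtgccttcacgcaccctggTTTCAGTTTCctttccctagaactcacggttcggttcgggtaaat
Rsad2: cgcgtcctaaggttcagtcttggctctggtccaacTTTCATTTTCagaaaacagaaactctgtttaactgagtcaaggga
Ifit1: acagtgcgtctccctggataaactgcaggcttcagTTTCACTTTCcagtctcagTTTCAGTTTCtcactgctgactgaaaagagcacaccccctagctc

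The microRNA that the arms differ in is shown by RefSeq's mature sequence of mmu-miR-126a-3p, at chr2:26591402-26591423 on the plus strand, with its seed, bases 2 to 8, in capitals.
mmu-miR-126a-3p: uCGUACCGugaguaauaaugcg

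Values are the deposited log2 expression levels, on which a difference of 1 is a 2-fold difference. Levels are compared within a gene, and ranks of mean levels over all genes serve only to show how low or high a gene reads. The probe set that names both Mir126a and Egfl7 read 5.90 to 11.56 on the arrays with added miR-126 and 2.76 to 3.88 on all others, so it follows the added microRNA. It did not separate the knockout arm (2.77 to 3.15) from AE9a (2.76 to 3.04) and does not check the knockout. Arrays differed in the SD of their log2 values over all genes, and 8 lay below 1.8. They were replicate 3 of the knockout arm at passage 2 and, in AE9a+miR-126, 7 of the 9 later arrays. Without them AE9a+miR-126 keeps replicate 3 alone at passages 2 and 4 and no array at passage 3. A count or call of that arm in such a fit rests on a single mouse per passage. A gene passed where limma's adjusted p over all 22180 genes was under 0.05, with no minimum fold.

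Averaged over the 35 genes, the interferon response was highest in the knockout arm at passage 1, with mean log2 levels of 8.56, 9.19 and 8.16 on its 3 arrays. AE9a read 6.57, 6.68 and 6.91 at that passage and AE9a+miR-126 read 7.21, 6.81 and 7.07, while the normal controls read 7.29, 7.27 and 7.03. All 3 knockout arrays thus lay above all 9 other arrays of the first passage. The knockout arm read 7.56, 6.69 and 6.74 at passage 2, 8.75, 8.02 and 7.90 at passage 3 and 7.44, 7.28 and 7.58 at passage 4. Its level was therefore high at passages 1 and 3 and lower at passages 2 and 4.

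AE9a moved to 7.93, 7.29 and 7.2 at passage 2, 6.91, 8.08 and 7.92 at passage 3 and 6.99, 7.30 and 7.77 at passage 4. AE9a+miR-126 read 6.34, 6.51 and 6.49, then 6.14, 6.58 and 6.04, then 6.20, 6.16 and 6.52 at the same passages. From passage 2 on, every array with added miR-126 lay below every array of the other arms at those passages and below the controls. Of the 35 members, 24 had their highest group mean in the knockout arm at passage 1 and 8 in the knockout arm at passage 3. The lowest group mean fell to AE9a+miR-126 at passage 3 for 12 members, to AE9a at passage 1 for 10 and to AE9a+miR-126 at passage 4 for 9. How many of all genes have their highest or lowest mean in these groups was not counted. These counts alone therefore do not set the members apart from other genes.

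**Figure D1:**
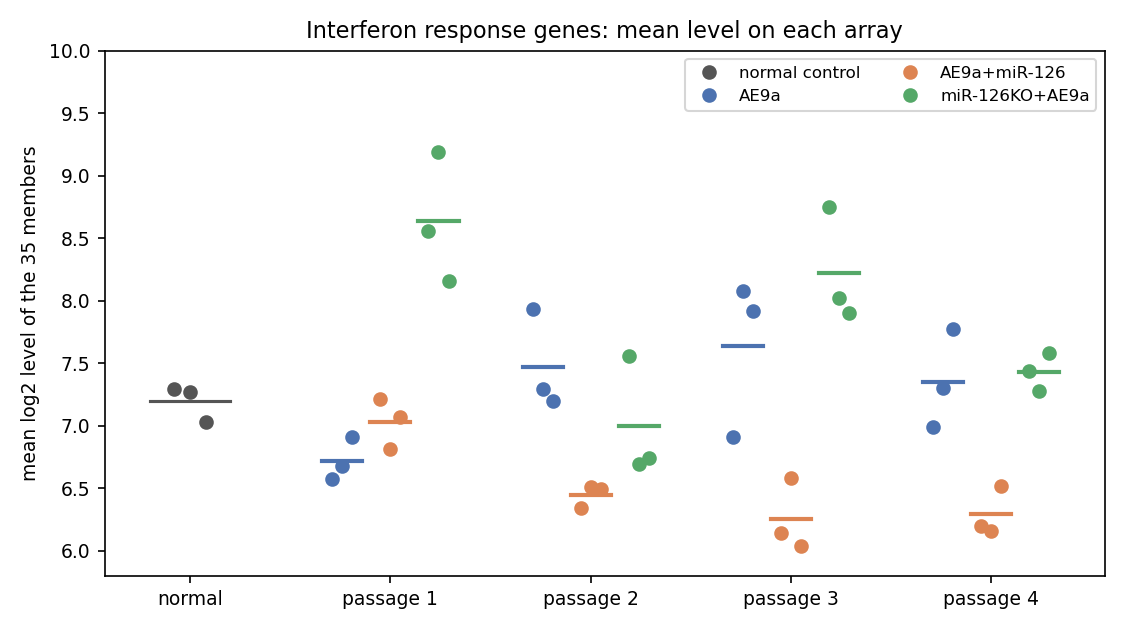
The mean log2 level of the 35 members on each array (y axis) is plotted by passage (x axis), with 1 point per mouse and a line at each group mean. The 3 knockout arrays of passage 1 lie at 8.16 to 9.19, above all other arrays of that passage, and those of AE9a+miR-126 lie at 6.04 to 6.58 from passage 2 on.

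**Figure D2:**
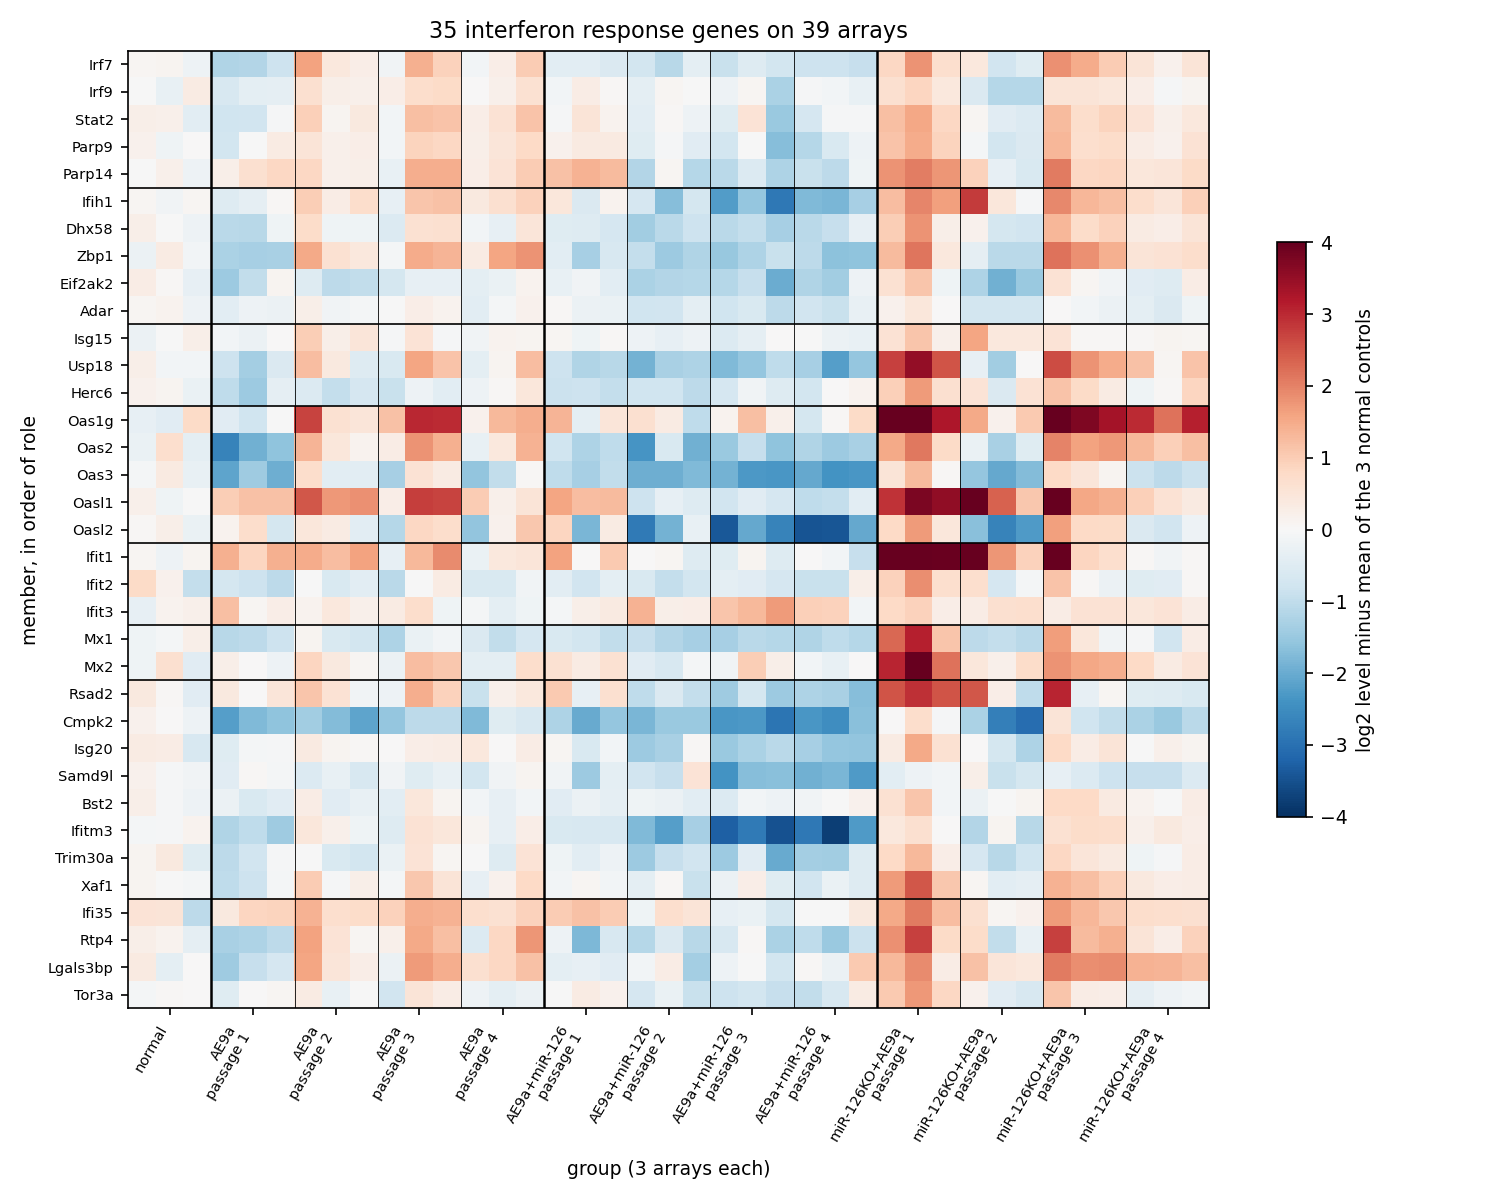
Each row is a member and each column an array, coloured by its log2 level minus the mean of the 3 normal controls, with colours ending at 4 in either direction. Cells more than 4 above the controls belong to Oas1g, Ifit1, Mx2 and Oasl1, all in the knockout arm, and the deepest blue cells to Ifitm3 and Oasl2 with added miR-126.

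At passage 1 the knockout leukaemias carried more RNA of most response genes than the AE9a leukaemias of the same passage. Of the 35 members 27 rose and 0 fell, with a median difference of 1.89 (all genes -0.01), in a comparison that called 2.09% of all 22180 genes (1.5% higher and 0.591% lower). With p-values left unadjusted, limma put 32 members on the higher side at p under 0.05 and 0 on the lower. For 31 members every knockout array lay above every AE9a array, against 11.8% of all genes. The members with the smallest adjusted p were Mx1, Oas1g, Mx2, Oas2, Usp18 and Xaf1. Without replicate 2 of the knockout arm, the array with the highest interferon levels, 12 members passed and the median was 1.64, and without replicate 1 of AE9a 17 passed.

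Among the transcription factors and their regulators, 4 of 5 members rose. Irf7 encodes the factor that amplifies interferon production, and it read 8.66, 9.62 and 8.49 in the knockout arm, 6.61, 6.66 and 6.98 in AE9a, 7.39, 7.41 and 7.23 in AE9a+miR-126 and 7.91, 7.93 and 7.62 in the normal controls. Stat2, the subunit that joins IRF9, read 8.81, 9.18 and 8.46 in the knockout arm, 6.82, 6.84 and 7.56 in AE9a, 7.58, 8.15 and 7.76 with added miR-126 and 7.85, 7.81 and 7.2 in normal marrow. For both genes each knockout array lay above all 9 others, and for Irf7 the lowest 3 were those of AE9a. The difference from AE9a was 2.17 ± 0.36 for Irf7 (a 4.51-fold difference, adjusted p = 0.000579) and 1.74 ± 0.37 for Stat2 (adjusted p = 0.00732). Irf9, the DNA-binding partner, differed by 1.12 ± 0.24 and Parp9, a partner of the ubiquitin ligase DTX3L, by 1.31 ± 0.32. Parp14 differed by 1.31 ± 0.40 and did not pass.

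Of the nucleic acid sensors and editors 4 of 5 rose. Ifih1, which encodes the double-stranded RNA sensor MDA5, read 9.11, 9.82 and 9.50 in the knockout arm against 7.36, 7.51 and 7.90 in AE9a, 8.33, 7.27 and 7.99 with added miR-126 and 7.93, 7.72 and 7.94 in normal marrow. The knockout arrays again stood above all others, by 1.89 ± 0.46 against AE9a (adjusted p = 0.0246). Zbp1, a sensor of left-handed nucleic acid, differed by 2.57 ± 0.39. Dhx58, the regulator LGP2, differed by 1.8 ± 0.34 and Eif2ak2, the kinase PKR, by 1.31 ± 0.35. Adar, which edits adenosine in double-stranded RNA, differed by 0.49 ± 0.17 and did not pass.

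In the ISG15 system the protease Usp18, which removes ISG15 and also restrains the interferon receptor, read 10.43, 11.21 and 10.22 in the knockout arm. It read 6.85, 6.33 and 7.10 in AE9a, 6.85, 6.48 and 6.58 with added miR-126 and 7.94, 7.57 and 7.57 in the normal controls. No other array of the first passage came within 2 log2 units of the lowest knockout array, and the difference from AE9a was 3.86 ± 0.48, or 14.5-fold (adjusted p = 1.34e-05). Herc6, the mouse ligase that attaches ISG15, rose by 2.04 ± 0.32. The modifier Isg15 itself read 4.89, 5.42 and 4.5 in the knockout arm, 4.2, 4.09 and 4.33 in AE9a, 4.38, 4.13 and 4.35 with added miR-126 and 4.09, 4.30 and 4.54 in normal marrow. Its knockout arrays lay above those of AE9a but overlapped the controls, and the difference of 0.73 ± 0.24 did not pass (adjusted p = 0.129). The probe set of Isg15 read low, with a mean at the 23.5 percentile of all gene means. Its small differences, here and below, therefore do not show that Isg15 RNA changed little.

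The oligoadenylate synthetases, which activate an RNA-degrading enzyme, and their relatives rose in 4 of 5 cases. Oas2 read 9.59, 10.16 and 8.84 in the knockout arm, 5.38, 6.14 and 6.44 in AE9a, 7.28, 6.83 and 7.06 with added miR-126 and 7.79, 8.72 and 7.68 in normal marrow. Oasl1, a synthetase-like protein that limits translation of Irf7, read 9.62, 10.47 and 10.25 in the knockout arm, 7.71, 7.89 and 7.90 in AE9a, 8.30, 7.94 and 7.99 with added miR-126 and 6.91, 6.53 and 6.71 in normal marrow. In both the knockout arrays were the highest, but the control arrays stood above AE9a for Oas2 and below it for Oasl1. Against AE9a the differences were 3.55 ± 0.44 (adjusted p = 1.12e-05) and 2.28 ± 0.58 (adjusted p = 0.0305). The widest difference of any member was that of Oas1g, 5.06 ± 0.62 or 33.5-fold (adjusted p = 1.12e-05), from 4.19, 3.84 and 4.64 in AE9a to 9.59, 10.39 and 7.88. Oas1g has close copies in its gene cluster, Oas1a among them, and its probe set may pick up their RNA as well. Oas3 rose by 2.44 ± 0.38, and Oasl2 differed by 0.92 ± 0.65 without passing.

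Of the IFIT proteins, which bind foreign RNA ends, Ifit1 read 10.13, 10.83 and 10.07 in the knockout arm, 7.54, 7.0 and 7.55 in AE9a, 7.74, 6.14 and 7.17 with added miR-126 and 6.22, 5.92 and 6.25 in the normal controls. The knockout arrays differed from AE9a by 2.98 ± 0.69 (adjusted p = 0.0159) and the AE9a arrays already lay above the controls. Ifit2 rose by 2.00 ± 0.40. Ifit3 differed by 0.14 ± 0.29 with overlapping arrays. Of the Mx GTPases, which block viral replication, Mx1 read 7.48, 8.27 and 6.28 in the knockout arm, 4.05, 4.14 and 4.33 in AE9a, 4.55, 4.45 and 4.2 with added miR-126 and 5.0, 5.10 and 5.42 in normal marrow. It rose by 3.17 ± 0.37, or 9.01-fold (adjusted p = 6.53e-06), and Mx2 by 3.15 ± 0.39 (adjusted p = 1.12e-05).

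Of the 8 other antiviral effectors 6 rose. Rsad2, the enzyme viperin, read 9.86, 10.29 and 9.86 in the knockout arm, 7.74, 7.37 and 7.85 in AE9a, 8.39, 7.04 and 8.01 with added miR-126 and 7.75, 7.41 and 6.91 in normal marrow. Its difference from AE9a was 2.35 ± 0.64 (adjusted p = 0.0454), and all knockout arrays were above all others. Ifitm3, which hinders viral entry at membranes, read 11.60, 11.80 and 11.19 in the knockout arm, 9.98, 10.16 and 9.76 in AE9a, 10.56, 10.52 and 10.53 with added miR-126 and 11.08, 11.13 and 11.31 in normal marrow. Here the knockout arrays overlapped the controls, and the AE9a arrays lay below all 9 others, with a difference from the knockout arm of 1.56 ± 0.31 (adjusted p = 0.00507). Bst2, the protein tetherin that holds budding virus, read 5.97, 6.48 and 5.26 in the knockout arm, 5.14, 4.76 and 4.93 in AE9a, 4.93, 5.14 and 5.02 with added miR-126 and 5.62, 5.32 and 5.18 in normal marrow. Its knockout arrays lay above AE9a, by 0.96 ± 0.23, and overlapped the controls. Cmpk2, a nucleotide kinase, rose by 2.09 ± 0.38, Xaf1, a pro-apoptotic factor, by 2.39 ± 0.32 (adjusted p = 5.56e-05) and Trim30a by 1.40 ± 0.34. Isg20, an RNA exonuclease, differed by 1.02 ± 0.32 and Samd9l by -0.09 ± 0.32, and neither passed. Among the remaining induced genes Rtp4 rose by 2.96 ± 0.53, Lgals3bp by 2.16 ± 0.44 and Tor3a by 1.35 ± 0.30, while Ifi35 differed by 0.90 ± 0.30 without passing.

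**Figure D3:**
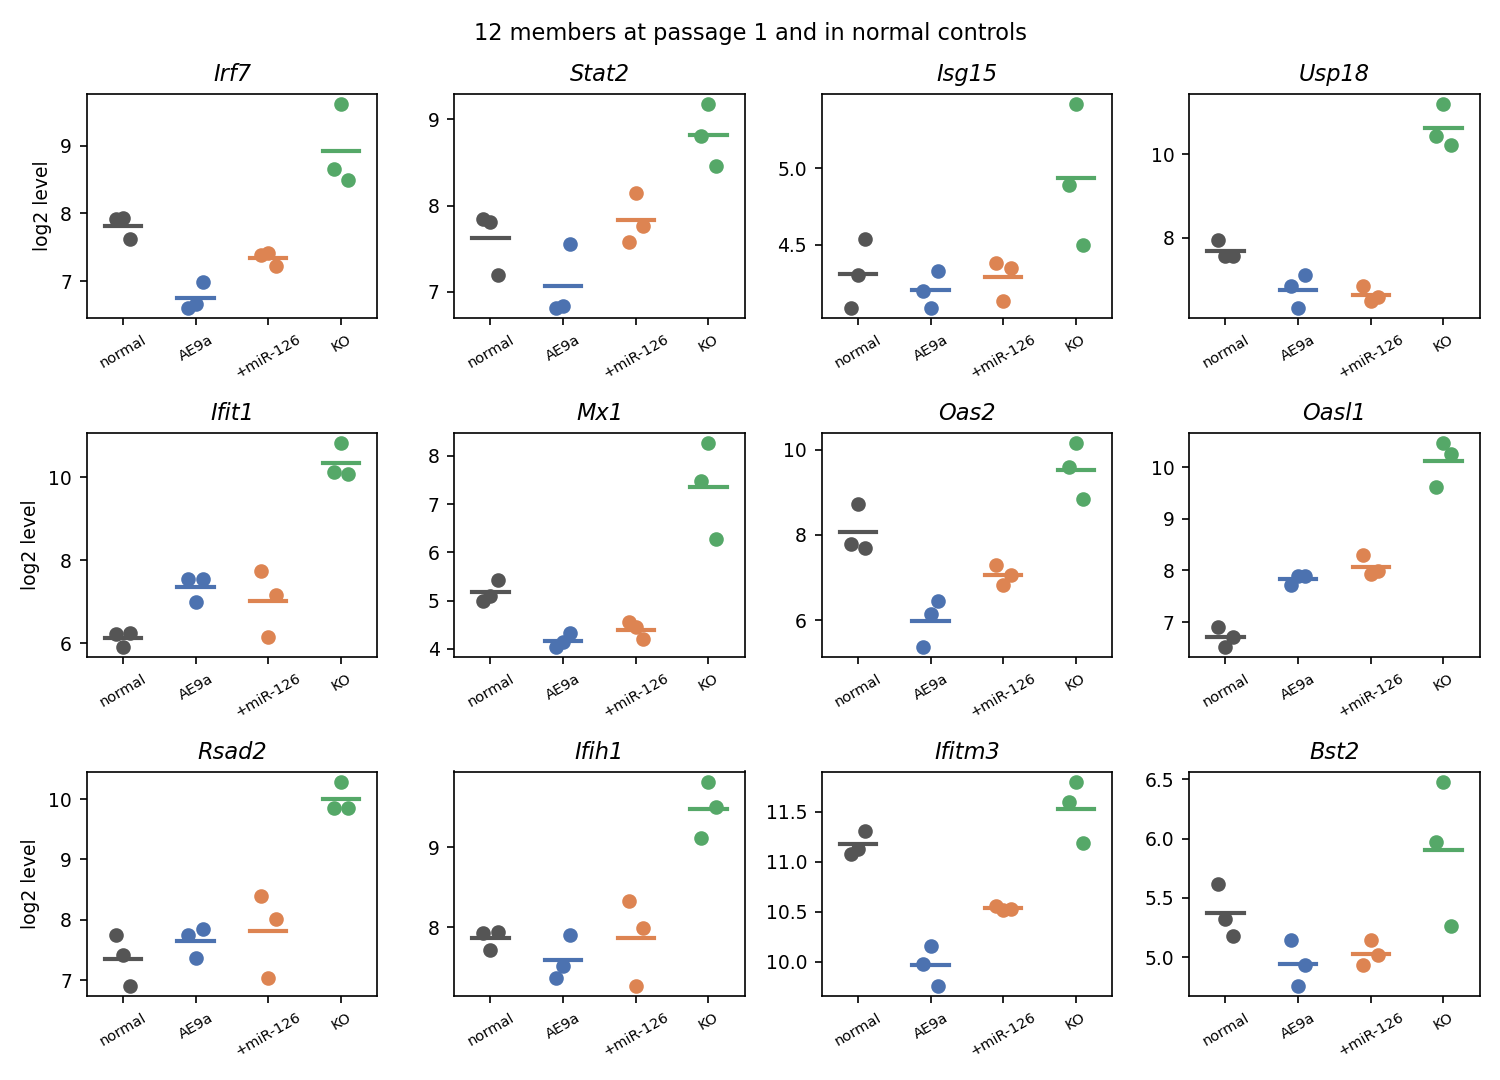
Log2 levels of 12 members (y axes, each with its own range) are shown for the normal controls and the 3 arms at passage 1 (x axis), with 1 point per array and a line at the mean. In Irf7, Stat2, Ifih1, Usp18, Ifit1, Mx1, Oas2, Oasl1 and Rsad2 all 3 knockout arrays lie above the other 9, and in Isg15, Ifitm3 and Bst2 they overlap the controls.

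Counts were also split by the promoter letters. In the knockout arm against AE9a, 7 of the 9 measured members with the letters rose (median 1.74), as did 11 of 16 without them (median 1.72) and 9 of 10 for which no promoter window was at hand (median 2.76).

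The other genes of the pathway were counted in the same comparison. Of 58 further pathway genes on lists of ligands, receptors and kinases, transcription factors and inhibitors, sensors and adaptors, and induced chemokines, 5 rose and 0 fell, where 1.5% of all genes were called higher. Of 18 ligands 0 passed (limma; at an unadjusted p under 0.05, 0 higher and 1 lower), and so did 0 of 9 receptor and kinase genes (1 higher and 2 lower unadjusted). Ifnb1, interferon beta, read 3.11, 4.28 and 3.92 in the knockout arm and 3.56, 3.56 and 3.65 in AE9a and stayed between 3.10 and 4.28 over all 39 arrays. Its mean level lay at the 7.2 percentile of all gene means, and those of the 18 ligands from 0.428 (Ifna11) to 86 (Ifna1). For ligands that read low, the lack of a call does not show that their RNA was unchanged. Ifnar1 differed by 0.57 ± 0.30, Ifnar2 by -0.30 ± 0.24 and Irf1, an interferon-induced factor, by 0.19 ± 0.46, and none of these passed.

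The 5 pathway genes that rose were the inhibitor Socs1 (1.41 ± 0.28), the sensors Tlr3 (1.02 ± 0.23) and Tlr9 (1.48 ± 0.34), the nucleotide hydrolase Samhd1 (0.83 ± 0.21) and the chemokine Cxcl11 (1.57 ± 0.33). Cxcl10, a chemokine that draws activated lymphocytes, read 10.42, 10.73 and 10.29 in the knockout arm, 8.25, 8.12 and 9.03 in AE9a and 5.45, 5.33 and 5.52 in normal marrow. Its knockout arrays lay above those of AE9a, but the difference of 2.01 ± 0.57 missed the threshold (adjusted p = 0.0563).

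Markers of other cells moved in the same comparison. Of 13 monocyte and macrophage markers 2 rose, Fcgr1 by 3.99 ± 0.45 and Ccr2 by 2.16 ± 0.37, and the list's mean level was 8.26 to 8.45 on the knockout arrays against 7.54 to 7.64 in AE9a. Of 5 erythroid markers Car1 rose by 4.28 ± 0.69, with list means of 6.76 to 7.97 against 5.31 to 5.42, and of 12 neutrophil markers S100a9 fell by 2.12 ± 0.55, with list means of 9.0 to 11 against 11.43 to 11.56. List means were also lower for early myeloid (7.85 to 8.32 against 8.58 to 9.65) and B cell markers (5.43 to 5.97 against 6.47 to 7.04). The same held for T and NK cell (4.97 to 5.01 against 5.19 to 5.40) and stroma and endothelium markers (5.65 to 5.74 against 5.93 to 6.04). Those of conventional dendritic cell and pan-leukocyte genes overlapped. Plasmacytoid dendritic cell markers, of cells known as strong interferon producers, read 5.58 to 5.75 against 5.54 to 5.72. The 1 marker of that list that rose was Bst2, itself a response gene. The part of these cells in the interferon difference was not tested.

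Against normal marrow the knockout leukaemias of passage 1 were also higher. Of the 35 members 19 rose and 0 fell, with a median of 1.16 (all genes 0.02), in a comparison that called 10.8% of genes (4.88% higher and 5.91% lower), and 24 members had all knockout arrays above all controls, against 16.9% of genes. Mx2 rose by 3.16 ± 0.39 (adjusted p = 1.28e-06), Oas1g by 4.64 ± 0.62, Ifit1 by 4.22 ± 0.69, Usp18 by 2.93 ± 0.48, Mx1 by 2.17 ± 0.37 and Oasl1 by 3.40 ± 0.58. Irf7 rose by 1.10 ± 0.36 and Stat2 by 1.2 ± 0.37. Among the 58 pathway genes 13 rose and 2 fell. Cxcl10 rose by 5.05 ± 0.57 and Cxcl11 by 2.63 ± 0.33, the inhibitors Socs3 and Socs1 by 2.44 ± 0.39 and 1.70 ± 0.28, the kinase Jak2 by 1.52 ± 0.22 and Ifnar1 by 0.97 ± 0.30. The genes that fell were the lambda interferon receptor Ifnlr1 (-2.12 ± 0.57) and the factor Irf8 (-1.22 ± 0.40). Without replicate 2 of the knockout arm 10 members passed. Of 12 neutrophil markers 8 fell in this comparison, with list means of 9.0 to 11 against 11.68 to 11.90, and 6 of 7 B cell markers fell (5.43 to 5.97 against 7.61 to 8.38). Early myeloid list means were 7.85 to 8.32 against 9.93 to 10.59, and monocyte and macrophage list means 8.26 to 8.45 against 7.56 to 7.78. The part of these cells was not tested.

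Against normal marrow the AE9a leukaemias of passage 1 were lower in a few members. No member rose and 5 fell, in a comparison that called 8.87% of genes (3.22% higher and 5.64% lower), with a median of -0.47 (all genes 0.03). The 5 were Cmpk2 (-1.87 ± 0.38, adjusted p = 0.00188), Oas3 (-1.84 ± 0.38), Oas2 (-2.08 ± 0.44), Ifitm3 (-1.2 ± 0.31) and Zbp1 (-1.30 ± 0.39). For 14 members all AE9a arrays were below all controls (15.5% of genes) and for 3 all were above (16.3%), Ifit1 and Oasl1 among them. Without replicate 1 of AE9a 3 members passed, and in a fit on these 2 groups alone 2 rose and 11 fell. Some chemokines went the other way, and Cxcl10 rose by 3.04 ± 0.57 and Cxcl11 by 1.06 ± 0.33, among 10 pathway genes that rose and 3 that fell.

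With added miR-126 at passage 1, 2 members rose against normal marrow and 1 fell, where 9.73% of genes were called (4.56% higher and 5.18% lower) and the member median was -0.22 (all genes 0.01). They were Ifi35 (1.07 ± 0.30), Parp14 (1.29 ± 0.40) and Cmpk2 (-1.61 ± 0.38). A single member, on the lower side, passed without replicate 2 of AE9a+miR-126 and without replicate 3 of the controls, and in a fit on the 2 groups alone 2 rose and 7 fell. Of the 58 pathway genes 10 rose and 3 fell, Cxcl10 (2.96 ± 0.57) and Socs3 (2.20 ± 0.39) among them.

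Against AE9a of the same passage, no member passed with added miR-126 in the limma fit (at an unadjusted p under 0.05, 3 higher and 0 lower), where 0.0316% of all genes passed (0.0271% higher and 0.00451% lower). The member median was 0.31 (all genes -0.01), and the smallest adjusted p was that of Oas2 (1.07 ± 0.44, adjusted p = 0.796). Of the 58 pathway genes 0 passed as well (3 higher and 0 lower unadjusted). The knockout arm against AE9a+miR-126 gave 15 members higher and 0 lower, with a median of 1.57, where 0.582% of genes were called (0.433% higher and 0.149% lower). Usp18 was higher by 3.98 ± 0.48 (adjusted p = 1.57e-05), Mx1 by 2.94 ± 0.37, Mx2 by 2.65 ± 0.39, Oas1g by 4.15 ± 0.62, Herc6 by 1.98 ± 0.32 and Oas2 by 2.47 ± 0.44. Of the pathway genes Ddx58, the RNA sensor RIG-I, was higher by 1.71 ± 0.33, with Tlr3 and Cxcl11, and 0 were lower. The count was 6 without replicate 2 of the knockout arm, 7 without replicate 2 of AE9a+miR-126 and 9 without its replicate 3.

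In the knockout arm most members fell from passage 1 to passage 2 and many rose from passage 2 to passage 3. The comparisons between neighbouring passages, of passages 2 and 3 with normal marrow and of the knockout effect at passage 2 with that at passage 1 were chosen after the values had been seen. From passage 1 to passage 2, 24 members fell and 0 rose, with a median of -1.60 (all genes 0.04), where 5.69% of genes were called (1.42% higher and 4.28% lower). The falls with the smallest adjusted p were those of Mx1 (-3.19 ± 0.37, adjusted p = 9.05e-06), Usp18 (-3.49 ± 0.48), Mx2 (-2.70 ± 0.39), Cmpk2 (-2.58 ± 0.38), Irf9 (-1.60 ± 0.24) and Oas3 (-2.38 ± 0.38). From passage 2 to passage 3, 19 members rose and 0 fell, with a median of 1.26 (all genes -0.04), where 1.97% of genes were called (1.33% higher and 0.645% lower). Zbp1 rose by 2.64 ± 0.39 (adjusted p = 0.000447), Irf9 by 1.44 ± 0.24, Oas3 by 2.24 ± 0.38, Oas2 by 2.45 ± 0.44, Usp18 by 2.52 ± 0.48 and Cmpk2 by 1.93 ± 0.38. Both steps use the same passage 2 arrays. One of these, replicate 3, has a low spread, and without it the rise to passage 3 counted 7 members, while the fit on the 2 groups alone gave 6 members for the first step and 7 for the second. The rise also counted 11 members without replicate 2 of passage 2 and 10 without replicate 1 or replicate 2 of passage 3. Of 8 early myeloid markers 3 rose from passage 1 to 2 (median 0.85) and 1 fell from passage 2 to 3 (median -0.90), with list means of 7.85 to 8.32 at passage 1, 8.24 to 9.80 at passage 2 and 7.76 to 8.36 at passage 3. Of 13 monocyte and macrophage markers 2 rose and 3 fell in the first step and 1 rose in the second. None of the 5 erythroid markers passed in either step, and that list read means of 6.76 to 7.97 at passage 1, 7.69 to 8.72 at passage 2 and 8.01 to 8.66 at passage 3, and the monocyte and macrophage list means of 8.26 to 8.45, 7.54 to 8.75 and 8.69 to 8.75. Their part in the interferon levels was not tested.

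Members differed in how they followed this course. Mx1 read 4.12, 4.23 and 4.10 at passage 2, 6.86, 5.64 and 5.02 at passage 3 and 5.12, 4.42 and 5.48 at passage 4. Usp18 read 7.38, 6.29 and 7.72 at passage 2, 10.31, 9.48 and 9.17 at passage 3 and 8.88, 7.77 and 8.83 at passage 4. Every array of passage 3 lay above every array of passage 2 in both genes. Oas2 read 7.79, 6.77 and 7.59 at passage 2, 10.05, 9.66 and 9.80 at passage 3 and 9.37, 9.01 and 9.26 at passage 4. Irf7 read 8.25, 7.06 and 7.32 at passage 2, 9.66, 9.31 and 8.83 at passage 3 and 8.34, 8.00 and 8.33 at passage 4. In these 2 genes passage 3 was above passage 2 on all arrays as well. Stat2 read 7.70, 7.18 and 7.07 at passage 2, 8.88, 8.31 and 8.51 at passage 3 and 8.16, 7.82 and 8.04 at passage 4. Bst2 read 5.14, 5.35 and 5.47 at passage 2, 6.18, 6.16 and 5.74 at passage 3 and 5.52, 5.37 and 5.68 at passage 4. The same order held for both genes. Ifitm3 read 10, 11.27 and 10.05 at passage 2, 11.77, 11.91 and 11.88 at passage 3 and 11.37, 11.56 and 11.45 at passage 4. Its passage 3 arrays lay above those of passages 2 and 4, and replicate 2 stood above the other arrays of passage 2.

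A second set of members was uneven within passages 2 and 3, where replicate 1 stood high. Ifit1 read 10.61, 7.88 and 7.06 at passage 2, 10.49, 7.0 and 6.79 at passage 3 and 6.17, 5.98 and 6.18 at passage 4. Rsad2 read 9.83, 7.61 and 6.35 at passage 2, 10.39, 7.04 and 7.43 at passage 3 and 6.86, 6.85 and 6.76 at passage 4. Oasl1 read 10.92, 9.09 and 7.78 at passage 2, 10.70, 8.27 and 8.13 at passage 3 and 7.68, 7.30 and 7.08 at passage 4. Replicate 1 of passage 2 exceeded the mean of the other 2 arrays by 3.14 for Ifit1, 2.85 for Rsad2 and 2.48 for Oasl1, and replicate 1 of passage 3 by 3.60, 3.16 and 2.50. Ifih1 read 10.65, 8.31 and 7.83 at passage 2, 9.77, 9.19 and 9.08 at passage 3 and 8.58, 8.35 and 8.82 at passage 4, with replicate 1 higher by 2.58 at passage 2 and by 0.63 at passage 3. Isg15 read 5.89, 4.72 and 4.73 at passage 2, 4.86, 4.37 and 4.36 at passage 3 and 4.37, 4.42 and 4.39 at passage 4, and its replicate 1 of passage 2 was the highest of all 39 arrays.

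On those arrays the uneven genes were not the whole response. Replicate 1 of passage 2 was over 1 log2 unit above the other 2 arrays for 11 of 35 members and replicate 1 of passage 3 for 8. How many of all genes had such a gap on these arrays was not counted, and replicate 3 of passage 2 has a low spread. At passage 2 Mx1 differed by -0.04, Usp18 by 0.38 and Ifitm3 by -0.66 on the same measure. The group means of Ifit1, Rsad2 and Oasl1 at these passages thus lie between a high array and lower ones. Cmpk2, whose gene lies next to Rsad2 in RefSeq's order, differed by 1.64 and 1.40. The labels do not tie replicate 1 of one passage to replicate 1 of the next.

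**Figure D4:**
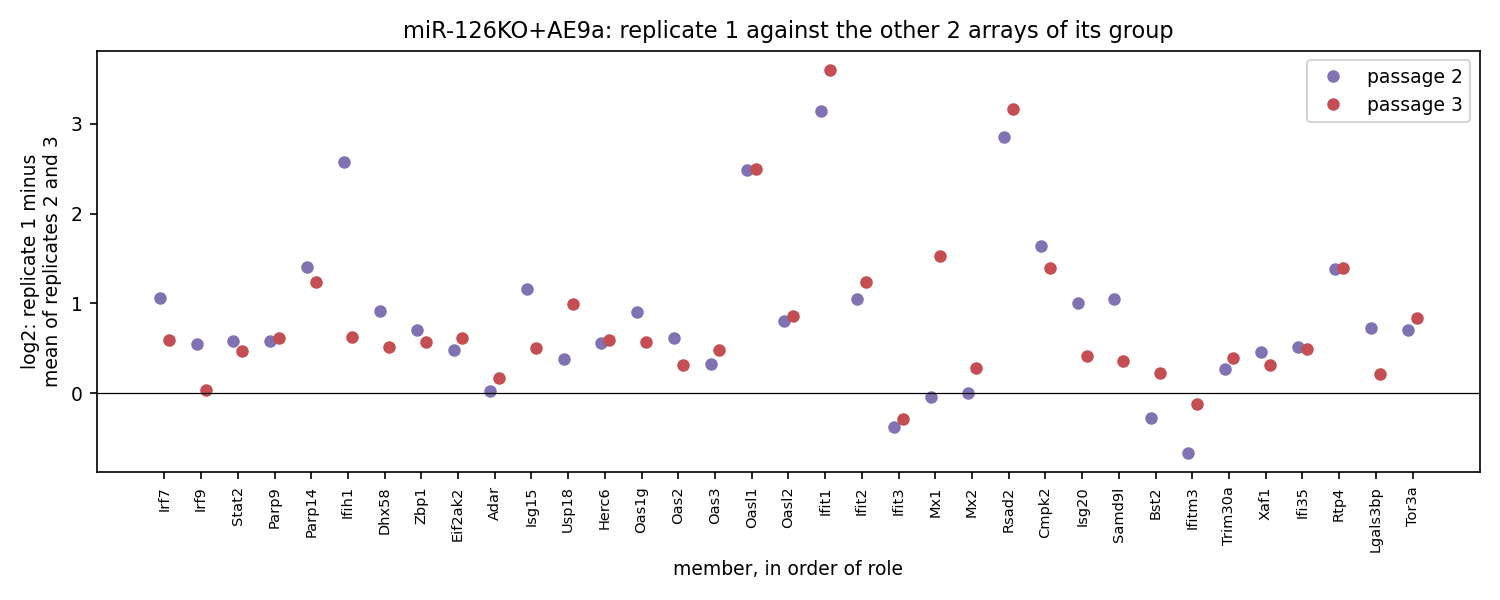
For each member (x axis, in order of role) the log2 level of replicate 1 minus the mean of replicates 2 and 3 is plotted for the knockout arm at passages 2 and 3. Ifit1, Rsad2 and Oasl1 lie at 2.48 to 3.60 at both passages, while Ifit3 and Ifitm3 lie below 0 and Mx1 differs between the passages (-0.04 and 1.53).

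Against normal marrow the knockout arm had 9 members called at passage 2, 3 higher and 6 lower (14.9% of genes called, 6.44% higher and 8.42% lower, median -0.30 with all genes at 0.03). The higher ones were Oasl1 (2.55 ± 0.58), Ifit1 (2.39 ± 0.69) and Isg15 (0.80 ± 0.24), all with replicate 1 at the top. The lower ones were Cmpk2 (-2.36 ± 0.38), Oas3 (-1.78 ± 0.38), Eif2ak2 (-1.56 ± 0.35), Adar (-0.74 ± 0.17), Irf9 (-0.95 ± 0.24) and Oasl2 (-2.19 ± 0.65). At passage 3, 13 members were higher and 0 lower (7.82% of genes called, 3.21% higher and 4.6% lower, median 0.93 with all genes at -0.01), led by Oas1g (3.73 ± 0.62), Zbp1 (1.8 ± 0.39), Ifi35 (1.36 ± 0.30), Lgals3bp (1.94 ± 0.44), Mx2 (1.60 ± 0.39) and Oas2 (1.77 ± 0.44). Without replicate 1 of that group 6 passed, and without replicate 3 of the controls 8. At passage 4 Oas1g was higher (2.75 ± 0.62) and Cmpk2 lower (-1.28 ± 0.38), with 5.68% of genes called (2.04% higher and 3.63% lower) and a median of 0.29 (all genes 0.02). When any 1 array of either group was left out, 1 member passed, on the higher side. Of the 58 pathway genes 5 rose and 1 fell at passage 4, including the inhibitor Socs3 (2.48 ± 0.39) and the sensor Tlr7 (1.44 ± 0.44).

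In AE9a a small set of members rose after passage 1. From passage 1 to passage 2, 6 members rose and 0 fell, with a median of 0.51 (all genes -0.02), where 1.34% of genes were called (1.07% higher and 0.271% lower). They were Oas2 (2.72 ± 0.44), Zbp1 (2.14 ± 0.39), Irf7 (1.84 ± 0.36), Oas3 (1.8 ± 0.38), Ifitm3 (1.37 ± 0.31) and Lgals3bp (1.77 ± 0.44). In that step 2 of 13 monocyte and macrophage markers rose and 0 fell, and for 8 every passage 2 array lay higher (13.2% of all genes). Of 12 neutrophil markers 0 passed, but for 10 every passage 2 array lay lower (11.1% of all genes). The part of these cells in that step was not tested. From passage 1 to passage 4, 6 members rose and 0 fell, with a median of 0.61 (all genes -0.05), where 2.94% of genes were called (2.02% higher and 0.915% lower). These were Zbp1 (2.53 ± 0.39, adjusted p = 0.00019), Oas2 (2.58 ± 0.44), Lgals3bp (1.88 ± 0.44), Irf7 (1.45 ± 0.36), Ifitm3 (1.23 ± 0.31) and Rtp4 (1.87 ± 0.53). In the 58 pathway genes 9 rose and 2 fell in that time, with Irf1 up by 1.70 ± 0.46, Ifng by 1.12 ± 0.21 and the chemokine Ccl2 by 4.71 ± 0.69. Over the same passages 3 of 9 T and NK cell markers rose, Cd3e by 2.25 ± 0.41 among them, with list means of 5.19 to 5.40 at passage 1 and 5.75 to 6.74 at passage 4. Of 13 monocyte and macrophage markers 3 rose, C1qb by 3.93 ± 0.67 among them, with list means of 7.54 to 7.64 and 8.41 to 8.77. The part of these cells in the change was not tested.

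The same members by array show how broad this was. In AE9a, Oas2 read 9.41, 8.51 and 8.19 at passage 2, 8.35, 9.85 and 9.49 at passage 3 and 7.78, 8.47 and 9.46 at passage 4, all above its passage 1 arrays. Irf7 read 9.43, 8.25 and 8.08 at passage 2, 7.67, 9.25 and 8.74 at passage 3 and 7.71, 8.07 and 8.83 at passage 4. Ifitm3 read 11.63, 11.39 and 10.99 at passage 2, 10.65, 11.75 and 11.64 at passage 3 and 11.29, 10.84 and 11.44 at passage 4. Both were likewise above passage 1 on every later array. Stat2 read 8.57, 7.74 and 8.01 at passage 2, 7.5, 8.83 and 8.76 at passage 3 and 7.89, 8.21 and 8.77 at passage 4. Usp18 read 8.94, 8.07 and 7.17 at passage 2, 7.07, 9.28 and 8.83 at passage 3 and 7.29, 7.80 and 8.94 at passage 4. Ifih1 read 8.86, 8.17 and 8.56 at passage 2, 7.54, 8.96 and 9.02 at passage 3 and 8.26, 8.51 and 8.80 at passage 4. Of these 3 genes 1 array of passage 3, replicate 1, fell within the range of passage 1.

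The remaining genes given by array were less even in AE9a. Ifit1 read 7.62, 7.36 and 7.73 at passage 2, 5.8, 7.43 and 8.02 at passage 3 and 5.87, 6.56 and 6.62 at passage 4, lower at passage 4 than at passage 1 on every array. Oasl1 read 9.19, 8.44 and 8.56 at passage 2, 6.98, 9.48 and 9.41 at passage 3 and 7.72, 6.92 and 7.23 at passage 4. Rsad2 read 8.47, 7.94 and 7.21 at passage 2, 7.16, 8.80 and 8.29 at passage 3 and 6.46, 7.57 and 7.78 at passage 4. Neither gene's passage 4 arrays lay apart from those of passage 1 on the high side. Mx1 read 5.28, 4.56 and 4.43 at passage 2, 3.95, 4.91 and 5.05 at passage 3 and 4.61, 4.19 and 4.49 at passage 4. Isg15 read 5.29, 4.54 and 4.78 at passage 2, 4.27, 4.86 and 4.25 at passage 3 and 4.18, 4.45 and 4.41 at passage 4. Bst2 read 5.68, 4.92 and 5.09 at passage 2, 4.94, 5.84 and 5.47 at passage 3 and 5.27, 5.04 and 5.27 at passage 4. Replicate 1 was the highest array of passage 2 for each of these 3 genes.

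Replicate 1 of AE9a at passage 3 was the array whose members lay furthest below their group. It was over 1 log2 unit below the mean of the other 2 arrays for 21 of 35 members (median -1.17), down to -2.46 for Oasl1. The share of all genes with such a gap on that array was not counted. The counts between passages moved with other single arrays of AE9a. Without replicate 1 of passage 2, the step from passage 1 to 2 counted 2 members, and without replicate 1 or replicate 3 of passage 1 it counted 3. From passage 1 to 4 the count was 2 without replicate 1 of passage 1 or replicate 3 of passage 4 and 3 without replicate 2 of passage 1. Against normal marrow AE9a at passage 4 had 0 members called by limma (at an unadjusted p under 0.05, 2 higher and 2 lower; 4.4% of genes called, 2.3% higher and 2.09% lower, median 0.09 with all genes at -0.02). Without replicate 1 of AE9a 1 member passed. Of the 58 pathway genes 13 rose and 0 fell in that comparison, including the inhibitor Socs3 (2.69 ± 0.39), Cxcl10 (3.00 ± 0.57), Cxcl9 (2.33 ± 0.45) and Ccl7 (4.16 ± 0.66).

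The knockout arm was therefore compared with an AE9a arm whose own levels had changed. At passage 2, 5 members were lower in the knockout arm and 0 higher, with a median of -0.61 (all genes 0.02), where 3.99% of genes were called (1.18% higher and 2.82% lower). These were Irf9 (-1.31 ± 0.24, adjusted p = 0.0015), Oas3 (-1.74 ± 0.38), Adar (-0.75 ± 0.17), Zbp1 (-1.68 ± 0.39) and Oasl2 (-2.31 ± 0.65). The count was 1 without replicate 1 of AE9a, 9 without replicate 1 of the knockout arm, 2 without its replicate 3 and 0 in a fit on the 2 groups alone. Of the pathway genes Tlr4 (-1.32 ± 0.26), Myd88 (-0.86 ± 0.20) and Socs1 (-1.06 ± 0.28) were lower and 0 higher.

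At passage 3 a single member was higher in the knockout arm, Herc6 (1.26 ± 0.32, adjusted p = 0.0459), with 1.05% of genes called (0.401% higher and 0.649% lower) and a median of 0.60 (all genes -0.03). No member passed when any 1 of the 6 arrays was left out, and the median then ranged from 0.26 without replicate 1 of AE9a to 0.83. At passage 4, 0 members passed in limma (2 higher and 0 lower unadjusted), with 1.33% of genes called (0.307% higher and 1.03% lower) and a median of 0.03 (all genes 0.04). Of the 58 pathway genes 0 passed at passage 3 (5 higher and 1 lower unadjusted). At passage 4, 5 pathway genes were lower and 0 higher, among them Ccl5 (-3.01 ± 0.49), Ifng (-1.24 ± 0.21) and Socs1 (-1.47 ± 0.28). Of 9 T and NK cell markers 5 were lower there as well, with list means of 4.79 to 4.95 against 5.75 to 6.74, and their part in this was not tested.

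The change of the knockout difference was tested itself. Between passages 1 and 4 it fell for 9 members and rose for 0, with a median of -1.83 (all genes 0.04), where 0.428% of genes were called (0.0496% higher and 0.379% lower). They included Zbp1 (-3.20 ± 0.55, adjusted p = 0.00321), Usp18 (-3.38 ± 0.68), Xaf1 (-2.29 ± 0.46), Mx1 (-2.59 ± 0.52), Oas3 (-2.53 ± 0.53) and Oas2 (-2.90 ± 0.62). The count was 1 without replicate 2 of the knockout arm at passage 1, 2 without replicate 3 of AE9a or replicate 2 of the knockout arm at passage 4, 4 and 5 without replicates 1 and 2 of AE9a at passage 1 and 19 in a fit on the 4 groups alone. Between passages 1 and 2 it fell for 24 members and rose for 0 (3.05% of genes called, 0.302% higher and 2.75% lower, median -2.24 with all genes at 0.05), Oas2 (-4.86 ± 0.62) and Oas3 (-4.18 ± 0.53) among them. Within the knockout arm 12 members fell from passage 1 to 4 and 0 rose (4.04% of genes called, 1.38% higher and 2.66% lower, median -0.85 with all genes at 0.01). First by adjusted p were Mx2 (-2.60 ± 0.39, adjusted p = 6.09e-05), Mx1 (-2.33 ± 0.37), Ifit1 (-4.24 ± 0.69), Rsad2 (-3.18 ± 0.64), Oasl1 (-2.76 ± 0.58) and Tor3a (-1.43 ± 0.30). Among pathway genes 9 fell, Cxcl10 (-3.29 ± 0.57) and Ifnar1 (-1.12 ± 0.30) included, and 2 rose. The count was 6 without replicate 2 of passage 1 and 7 without replicate 2 of passage 4.

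**Figure D5:**
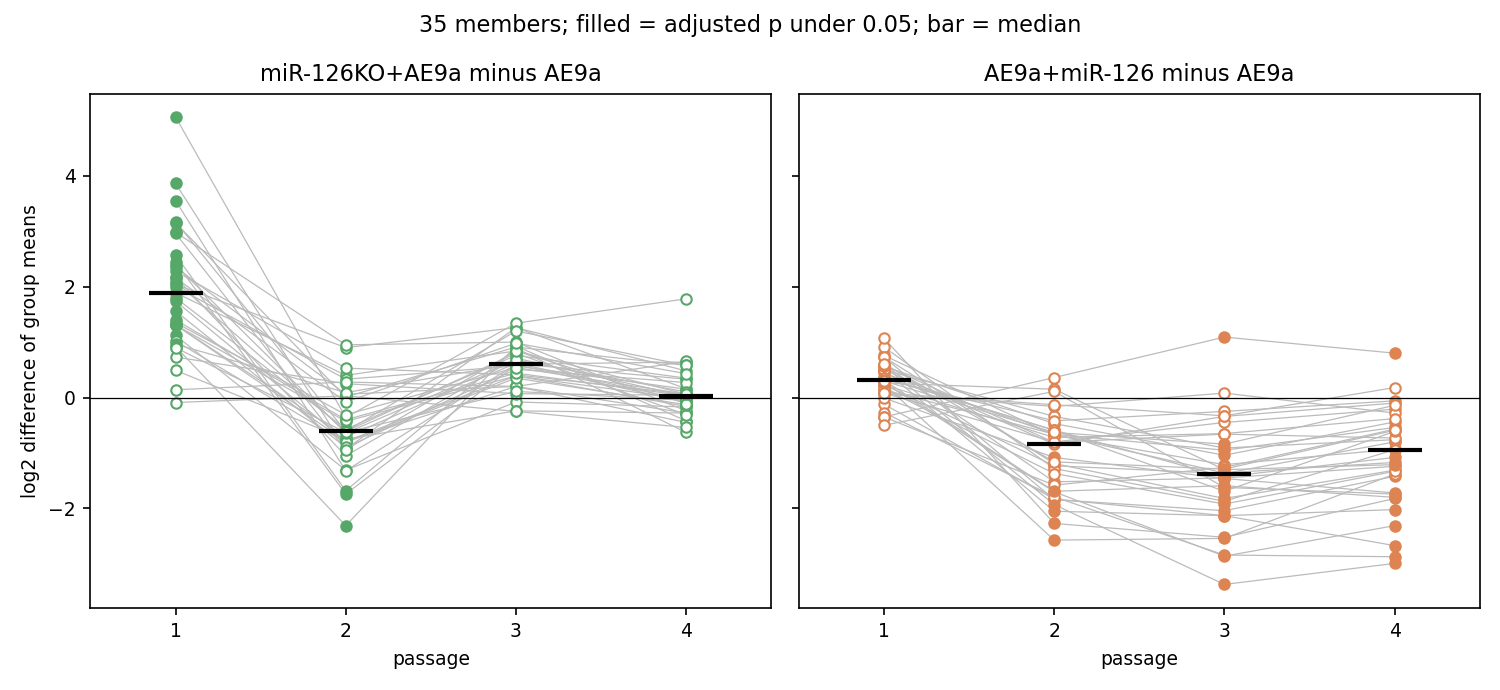
The log2 difference of each member between an arm and AE9a (y axis) is plotted at each passage (x axis) for the knockout arm (left) and AE9a+miR-126 (right). Filled points passed at an adjusted p under 0.05, thin lines join a member across passages and bars mark the median, which was 1.89, -0.61, 0.60 and 0.03 on the left and 0.31, -0.84, -1.37 and -0.94 on the right.

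With added miR-126 a part of the members fell against AE9a of the same passage from passage 2 on. At passage 2, 13 fell and 0 rose, with a median of -0.84 (all genes 0.05), where 8.85% of genes were called (3.18% higher and 5.68% lower). At passage 3, 26 fell and 1 rose, with a median of -1.37 (all genes 0.12), where 52.2% of genes were called (27.3% higher and 24.8% lower). At passage 4, 16 fell and 1 rose, with a median of -0.94 (all genes 0.13), where 24.7% of genes were called (12.7% higher and 12% lower). The members' counts have to be read against these shares, which are large at passages 3 and 4.

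Ifitm3 led all 3 comparisons. It read 9.41, 8.97 and 9.85 at passage 2, 7.91, 8.34 and 7.68 at passage 3 and 8.30, 7.42 and 8.90 at passage 4 with added miR-126, below every array of the other arms at those passages and below the controls. Against AE9a it differed by -1.93 ± 0.31, -3.37 ± 0.31 and -2.99 ± 0.31 (adjusted p = 0.000292, 1.10e-08 and 7.49e-08). Zbp1 differed by -2.05 ± 0.39, -2.13 ± 0.39 and -2.67 ± 0.39, and Oas2, which read 5.70, 7.44 and 6.15 at passage 2, 6.57, 7.15 and 6.44 at passage 3 and 6.85, 6.62 and 6.78 at passage 4, differed by -2.27 ± 0.44, -2.52 ± 0.44 and -1.82 ± 0.44. Ifih1 read 7.18, 6.15 and 7.15 at passage 2, 5.63, 6.33 and 4.99 at passage 3 and 6.09, 6.03 and 6.53 at passage 4 and differed by -1.70 ± 0.46, -2.86 ± 0.46 and -2.31 ± 0.46. In this fit Zbp1, Oas2 and Ifih1 passed on the lower side at each of the later passages, but each of them lost at least 1 call under other settings for the arrays' spread.

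Irf7 read 7.07, 6.72 and 7.43 at passage 2, 6.93, 7.29 and 7.10 at passage 3 and 7.0, 7.0 and 6.89 at passage 4 and passed at each passage in the same fit, with -1.52 ± 0.36, -1.45 ± 0.36 and -1.24 ± 0.36. Usp18 read 5.79, 6.41 and 6.47 at passage 2, 5.94, 6.16 and 6.69 at passage 3 and 6.35, 5.50 and 6.14 at passage 4 and passed as well, with -1.83 ± 0.48, -2.13 ± 0.48 and -2.02 ± 0.48. Oasl1 read 5.90, 6.38 and 6.19 at passage 2, 5.95, 6.27 and 6.04 at passage 3 and 5.70, 5.75 and 6.30 at passage 4 and fell at passages 2 and 3 (-2.57 ± 0.58 and -2.54 ± 0.58). Its difference at passage 4, -1.38 ± 0.58, did not pass (adjusted p = 0.0755). Rsad2 read 6.34, 6.77 and 6.41 at passage 2, 5.93, 6.65 and 5.91 at passage 3 and 6.13, 6.07 and 5.64 at passage 4 and passed at passage 3 alone (-1.92 ± 0.64), as did Stat2, which read 7.21, 7.66 and 7.41 at passage 2, 7.15, 8.18 and 6.14 at passage 3 and 6.96, 7.57 and 7.57 at passage 4 (-1.21 ± 0.37). Isg15 read 4.10, 3.97 and 4.12 at passage 2, 3.77, 3.95 and 4.31 at passage 3 and 4.30, 4.09 and 4.02 at passage 4 and passed at passage 2 alone (-0.80 ± 0.24).

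Ifit1 read 6.15, 6.21 and 5.62 at passage 2, 5.64, 6.24 and 5.61 at passage 3 and 6.14, 6.02 and 5.20 at passage 4. Mx1 read 4.26, 4.01 and 3.85 at passage 2, 3.85, 4.09 and 4.03 at passage 3 and 3.97, 4.15 and 4.04 at passage 4. Bst2 read 5.21, 5.14 and 4.95 at passage 2, 4.83, 5.27 and 5.18 at passage 3 and 5.23, 5.37 and 5.53 at passage 4. None of these 3 passed against AE9a at any of the 3 passages. Their differences at passage 3 were -1.26 ± 0.69, -0.65 ± 0.37 and -0.33 ± 0.23. Other members among the smallest adjusted p were Oas3 (-1.84 ± 0.38 at passage 2), Ifi35 (-1.69 ± 0.30) and Adar (-0.95 ± 0.17) at passage 3, and Samd9l (-1.74 ± 0.32), Isg20 (-1.72 ± 0.32) and Oasl2 (-2.87 ± 0.65) at passage 4.

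The member that rose was Ifit3, which read 7.06, 7.25 and 7.64 with added miR-126 and 6.28, 6.65 and 5.76 in AE9a at passage 3. It was higher by 1.09 ± 0.29 at passage 3 and 0.80 ± 0.29 at passage 4, but by 0.03 and 0.14 with each array's SD as a covariate, where neither passed. At passage 4 it did not pass with cyclic loess or without the arrays of low spread either. The knockout arm minus AE9a+miR-126 at passage 3 was -0.89 for Ifit3 and turned to 0.17 under that covariate, which did not pass.

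The spread of the arrays moved with these differences. The SD over all genes was 1.43 to 1.71 with added miR-126 at passage 3 and 1.95 to 2.03 in AE9a. With that SD as a covariate 4, 4 and 6 members fell at passages 2, 3 and 4. With cyclic loess normalization 6, 17 and 11 fell, and the median at passage 3 was -0.81. Without the arrays of low spread, replicate 3 alone of AE9a+miR-126 was left at passages 2 and 4 and no array at passage 3. That fit cannot show how the mice of the arm vary. Ifitm3 passed at all 3 passages with the covariate and with cyclic loess. Its differences were -1.58, -2.68 and -2.55 with the covariate, -1.56, -2.22 and -2.50 with cyclic loess, and -1.49 and -2.29 without the arrays of low spread.

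Of the other members named for these passages, Samd9l and Isg20 also kept their calls at passage 4 with the covariate and with cyclic loess. The rest lost some in the 3 fits, of which that without the arrays of low spread rests on replicate 3 alone. Zbp1 passed at all 3 passages with the covariate (-2.07, -2.17 and -2.70) and with cyclic loess (-1.68, -1.42 and -2.31), but not at passage 2 without the arrays of low spread (adjusted p = 0.0693). Oas2 did not pass at passage 4 with the covariate (adjusted p = 0.0526) or without those arrays (adjusted p = 0.0659). Ifih1 did not pass at passages 2 and 3 with the covariate (adjusted p = 0.23 and 0.0571) or at passage 2 with cyclic loess (adjusted p = 0.0757) and without the arrays of low spread (adjusted p = 0.264). Irf7 passed at no passage in any of these fits, and its differences with cyclic loess were -1.08, -0.55 and -0.78. Usp18 lost passages 2 and 3 with the covariate, passage 2 with cyclic loess and both remaining passages without the arrays of low spread. Stat2 and Rsad2 lost passage 3 with the covariate and with cyclic loess, and Oasl1 lost passages 2 and 3 with the covariate and passage 2 without the arrays of low spread. Isg15 lost passage 2 with the covariate and without those arrays, and with cyclic loess it also passed at passage 3 (-0.90). Of the further members named, Adar at passage 3 differed by -0.07 with cyclic loess and -0.44 with the covariate and passed in neither. Ifi35 lost passage 3 and Oasl2 passage 4 with the covariate, and Oas3 lost passage 2 and Oasl2 passage 4 without the arrays of low spread. The fits on the compared groups alone gave 7 at passage 2 and 10 at passage 4.

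Leukocyte genes and the upper pathway were also lower on these arrays, in comparisons that called 8.85%, 52.2% and 24.7% of all genes at passages 2, 3 and 4. All 4 pan-leukocyte genes fell at passage 3, Ptprc (-0.93 ± 0.28) and Spi1 (-1.64 ± 0.26) among them, with list means of 8.17 to 9.29 against 9.88 to 10.11 in AE9a. Of 12 neutrophil markers 11 fell, with list means of 7.49 to 9.26 against 10.30 to 10.83, and of 13 monocyte and macrophage markers 9 fell and 1 rose, with 6.98 to 7.60 against 7.74 to 8.83. The part of these cells in the interferon difference was not tested. Of the 58 pathway genes 28 fell and 4 rose at passage 3, where 24.8% of all genes were called lower and 27.3% higher. Those that fell included Ifnar1 (-2.00 ± 0.30), Ifnar2 (-0.99 ± 0.24), Jak1 (-1.47 ± 0.15) and Jak2 (-3.00 ± 0.22). At passage 2, 14 fell and 0 rose, with Ifnar1 at -1.60 ± 0.30, and at passage 4, 26 fell and 4 rose, with the chemokine Ccl5 at -5.38 ± 0.49. Among the ligands Ifna1 rose by 1.24 ± 0.21 and Ifna4 fell by 1.36 ± 0.30 at passage 3. Pathway genes and cell markers were not refitted under the other settings for the arrays' spread, here or in the comparisons below. How far their differences depend on that spread was not tested.

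Leaving out single arrays moved the counts with added miR-126 as follows. At passage 2 the count was 4 without replicate 1 of AE9a and 6 and 7 without replicates 1 and 2 of AE9a+miR-126. At passage 4 it was 9 without replicate 3 of AE9a and 11 without replicate 1 or replicate 2 of AE9a+miR-126. At passage 3 it stayed between 20 and 30.

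Against normal marrow at passage 4, 14 members were lower with added miR-126 and 0 higher, with a median of -0.78 (all genes 0.09), where 31.5% of genes were called (17% higher and 14.5% lower). They included Ifitm3 (-2.96 ± 0.31, adjusted p = 7.17e-08), Samd9l (-2.00 ± 0.32), Oas3 (-2.26 ± 0.38), Cmpk2 (-2.17 ± 0.38), Isg20 (-1.49 ± 0.32) and Oasl2 (-2.97 ± 0.65). The count was 9 with cyclic loess, 7 with the spread covariate, 5 without the arrays of low spread and 8 without replicate 2 of AE9a+miR-126. Oasl2 lost its call without the arrays of low spread. Markers of other cells were lower as well. Of 12 neutrophil markers 11 were lower, with list means of 6.43 to 6.82 against 11.68 to 11.90 in the controls, as were 6 of 7 B cell markers (5.28 to 5.41 against 7.61 to 8.38), all 5 erythroid markers and all 4 pan-leukocyte genes (8.88 to 9.56 against 9.79 to 10.18). Their part in the interferon difference was not tested. Pathway genes passed in both directions, 8 higher and 16 lower of 58.

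From passage 1 to passage 4 within AE9a+miR-126, 12 members fell and 0 rose (24.3% of genes called, 11.1% higher and 13.2% lower, median -0.59 with all genes at 0.13). The first by adjusted p were Ifitm3 (-2.33 ± 0.31), Parp14 (-1.99 ± 0.40), Oasl2 (-2.75 ± 0.65), Samd9l (-1.34 ± 0.32), Isg20 (-1.28 ± 0.32) and Oasl1 (-2.16 ± 0.58). From the pathway lists 19 of 58 genes fell and 4 rose. The count was 7 lower and 2 higher with cyclic loess, 3 with the spread covariate, 3 without the arrays of low spread and 7 without replicate 1 of passage 1 or replicate 2 of passage 4. Oasl2 and Oasl1 lost the call with the covariate and without those arrays, Isg20 with the covariate and Parp14 without those arrays. Of 12 neutrophil markers 11 fell over the same passages, with list means of 9.73 to 11.41 at passage 1 and 6.43 to 6.82 at passage 4, and their part was not tested. The change of the difference from AE9a between those passages was lower for 10 members and higher for 0 (10.5% of genes called, 4.59% higher and 5.94% lower, median -1.43 with all genes at 0.10). Ifitm3 led with -3.55 ± 0.44 (adjusted p = 1.05e-05), then Zbp1 (-3.17 ± 0.55), Oas2 (-2.89 ± 0.62), Oas3 (-2.15 ± 0.53), Ifih1 (-2.58 ± 0.66) and Isg20 (-1.71 ± 0.45). That count was 3 with the covariate, 4 with cyclic loess, 5 without the arrays of low spread or without replicate 1 of AE9a at passage 1, 6 without replicate 3 of AE9a at passage 4 and 23, of which 1 was higher, without replicate 3 of AE9a+miR-126 at passage 4. Oas3 lost its call in each of the 3 fits on scale and spread, Isg20 with the covariate and with cyclic loess, and Ifih1 with the covariate and without those arrays. Of the pathway genes 16 were lower and 0 higher.

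The arms with miR-126 knocked out and added were compared at each passage as well. At passage 3, 32 members were higher in the knockout arm and 1, Ifit3, was lower, with a median of 1.86 (all genes -0.17), where 57.7% of genes were called (25.4% higher and 32.4% lower). Ifitm3 was higher by 3.88 ± 0.31 (adjusted p = 5.94e-10), Ifih1 by 3.70 ± 0.46, Zbp1 by 3.02 ± 0.39, Oas2 by 3.12 ± 0.44, Usp18 by 3.39 ± 0.48 and Oas3 by 2.63 ± 0.38. With the spread covariate 9 were higher and 0 lower. The median was 1.18 with the covariate and 1.28 with cyclic loess, against 1.59 and 1.57 in the same fits at passage 1. Of the 14 members described by array or by smallest adjusted p that passed, Stat2, Ifit1 and Rsad2 lost the call with cyclic loess, and these 3 with Ifit3, Oasl1 and Bst2 lost it with the covariate. All 4 pan-leukocyte genes and 4 of 5 erythroid markers were higher in the knockout arm too, and their part was not tested. At passage 2, 4 were higher and 1 lower (3.37% of genes called, 2.24% higher and 1.14% lower, median 0.37 with all genes at -0.03): Oasl1 (3.11 ± 0.58), Ifih1 (2.1 ± 0.46), Isg15 (1.05 ± 0.24) and Ifit1 (2.53 ± 0.69) against Irf9 (-0.84 ± 0.24). That count was 0 in a fit on the 2 groups alone, 1 without replicate 2 of AE9a+miR-126 and 3 without the arrays of low spread, where Isg15, Ifit1 and Irf9 did not pass. At passage 4, 16 were higher and 0 lower (13.3% of genes called, 8.3% higher and 5.05% lower, median 1.00 with all genes at -0.10), led by Ifitm3 (3.26 ± 0.31), Oas2 (2.46 ± 0.44), Zbp1 (2.04 ± 0.39), Usp18 (2.50 ± 0.48), Ifih1 (2.37 ± 0.46) and Isg20 (1.59 ± 0.32). It was 8 with the covariate, 7 without the arrays of low spread or without replicate 3 of the knockout arm, and 9 and 8 without replicates 1 and 2 of AE9a+miR-126. From the 58 pathway genes 4, 33 and 17 were higher at passages 2, 3 and 4, and 0, 5 and 0 lower.

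Correlations between members were described across the 39 arrays. Of 595 pairs of members 474 had a Pearson correlation over 0.5, with a median of 0.68, a description over arrays that share groups. Such pairs among other genes were not counted, and 8 arrays had an SD below 1.8. Whether these correlations are particular to the members was not tested. The mean of the other members was followed most closely by Dhx58 (r = 0.95), Usp18 (r = 0.94), Rtp4 (r = 0.91) and Irf7 (r = 0.91). The members that followed it least were Ifit3 (r = -0.30), Samd9l (r = 0.47) and Isg15 (r = 0.62), of which Isg15 read low on these arrays. Samd9l, an antiviral translation inhibitor, had its highest group mean in normal marrow, at 7.81 ± 0.17 (SD, n = 3). Ifit3 had its highest in AE9a+miR-126 at passage 3, at 7.32 ± 0.30 (SD, n = 3), and Isg15 its highest in the knockout arm at passage 2, at 5.11 ± 0.67 (SD, n = 3).

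Some members are neighbours in RefSeq's gene order with no gene between them: Rsad2 and Cmpk2, Ifit2 and Ifit3, Oasl1 and Oasl2, Oas2 and Oas3, Oas1a and Oas1g, and Parp9, Dtx3l and Parp14. In the knockout arm against AE9a at passage 1, Ifit2 rose by 2.00 ± 0.40 while Ifit3 differed by 0.14 ± 0.29, and Oasl1 rose by 2.28 ± 0.58 while Oasl2 differed by 0.92 ± 0.65. Whether the 2 genes of a pair differ from each other was not tested.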

How the data were processed

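RNA from CD45.1+ marrow cells of 39 mice was measured on mouse gene arrays, 1 array per mouse and 3 per group. The deposited values are log2 expression levels, made by the authors with RMA and Partek 6.0 per the submitters' processing notes. The background, batch and filtering steps were not given in the sources used here, and no batch could be tested. Of 27037 probe sets 23521 named 1 gene, and the one with the highest mean was kept per gene (22180 genes). Here 1 linear model of 13 group means (26 residual degrees of freedom) was fitted with limma 3.58.1 in R 4.3.3 with moderated errors, and p-values were adjusted by Benjamini-Hochberg over all genes, with 0.05 as threshold. The ± of a difference is the model's standard error, and the number of arrays limits the precision. The members, gene lists and tests were chosen with earlier results of these data known, and 6 of the 29 comparisons after their values were seen.

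In each comparison up to 6 members that rose and 6 that fell were named, by smallest adjusted p. Array values were given for 12 members spread over the roles, and 6 pathway genes were named whatever their values, with a few more per list. Alternatives were the replicate number as a block, only the compared groups, cyclic loess, each array's SD as a covariate, a filter on dim genes, a trended and robust prior, the mean of a gene's probe sets and leaving arrays out. On simulated data for the knockout arm against AE9a at passage 1, with 22180 genes, 50 genes each were altered 1.5-, 2-, 4- and 8-fold, and 7, 28, 47 and 50 of them passed. Sequences are RefSeq's, build GRCm38.p6. Members without a promoter window there, Usp18, Mx1 and Oas2 among them, have none printed.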

Additional observations from a re-analysis of the deposited data

Results flagged for a closer look

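A group's difference from AE9a that changed between passages was looked at again where limma's test of the change itself, on the log2 scale, passed at an adjusted p under 0.05. Between passages 1 and 4 the knockout arm's difference from AE9a fell for 9 members: Zbp1 (-3.20), Usp18 (-3.38), Mx1 (-2.59), Xaf1 (-2.29), Oas3 (-2.53), Oas2 (-2.90), Mx2 (-2.56), Cmpk2 (-2.40) and Irf7 (-2.15). Without replicate 2 of the knockout arm at passage 1 a single member passed.

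The difference of AE9a+miR-126 from AE9a fell between the same passages for 10 members: Ifitm3 (-3.55), Zbp1 (-3.17), Oas2 (-2.89), Oas3 (-2.15), Ifih1 (-2.58), Isg20 (-1.71), Irf7 (-1.83), Parp14 (-2.04), Parp9 (-1.61) and Stat2 (-1.69). With each array's SD as a covariate 3 members passed.

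Between passages 1 and 2, in a comparison chosen after the values were seen, the knockout arm's difference from AE9a fell for 24 members. The 8 with the smallest adjusted p were Oas2 (-4.86), Oas3 (-4.18), Zbp1 (-4.25), Mx1 (-3.78), Irf9 (-2.42), Usp18 (-4.79), Xaf1 (-3.03) and Irf7 (-3.22). The next were Oas1g (-5.42), Mx2 (-3.13), Ifitm3 (-2.46), Rtp4 (-3.89), Adar (-1.24), Cmpk2 (-2.70), Stat2 (-2.53) and Dhx58 (-2.37). The last were Parp9 (-2.09), Eif2ak2 (-2.01), Isg20 (-1.84), Tor3a (-1.66), Trim30a (-1.79), Ifi35 (-1.53), Lgals3bp (-2.24) and Oasl2 (-3.23). The AE9a arm itself rose at passage 2 for 6 members, so both arms enter this change. No group of arrays here has more than 3 mice, so single arrays far from their group were not tested as outliers.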

How the results depend on the processing

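Counts of called members out of 35 follow, and pathway genes and cell markers were not refitted. The filter on dim genes, the trended and robust prior and the mean of a gene's probe sets left every count within 1.5 times. Residuals of arrays with the same replicate number in different groups had a median r of -0.02 (234 pairs, -0.67 to 0.63). For different numbers the median r was 0.01. The pairs were pooled over all groups, so pairing within an arm from one passage to the next cannot be judged from them. With the number as a block, the knockout arm against AE9a at passage 3 gave 0 members, and no other count moved by over 1.5 times. Fits on the compared groups alone gave, against normal marrow, 13 (AE9a, passage 1), 9 (added miR-126, passage 1) and 7 (knockout, passage 4). They gave 0 and 0 for the knockout arm against AE9a at passages 2 and 3, 7 and 10 for added miR-126 against AE9a at passages 2 and 4, and 0 for knockout against added miR-126 at passage 2. They gave 10 for AE9a from passage 1 to 4 and 10 to passage 2, 19 for the change of the knockout difference to passage 4, and 6 and 7 for the knockout arm's steps to passages 2 and 3. Cyclic loess gave 9 (added miR-126 at passage 4 against normal), 6 and 11 (against AE9a at passages 2 and 4) and 4 (the change of that difference). With each array's SD as a covariate the counts against normal marrow were 8, 5, 1, 7 and 4 (AE9a and added miR-126 at passage 1, then AE9a, added and knockout at passage 4). They were 4, 4 and 6 for added miR-126 against AE9a at passages 2 to 4, 9 and 8 for knockout against added at passages 3 and 4, 3 for added miR-126 from passage 1 to 4 and 3 for the change of its difference. Ifit3 between knockout and added miR-126 at passage 3 turned from -0.89 to 0.17 there. The cause of these moves was not tested. Without the arrays of low spread, so with fewer samples, the counts were 5 (added miR-126 at passage 4 against normal), 3 (knockout against AE9a at passage 2), 3 and 5 (added against AE9a at passages 2 and 4), 3 and 7 (knockout against added at passages 2 and 4), 3 (added, passage 1 to 4), 5 (the change of its difference) and 11 (knockout, passage 2 to 3). With added miR-126, replicate 3 alone was left there for passages 2 and 4 and no array for passage 3. Counts of that arm there cannot show how its mice vary.

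Leaving out 1 array gave these ranges. Against normal marrow they were 3 to 5, 1 to 2 and 10 to 23 at passage 1 (AE9a, added, knockout) and 0 to 1, 8 to 18 and 1 to 1 at passage 4, and for the knockout arm 6 to 10 at passage 2 and 6 to 12 at passage 3. Knockout against AE9a gave 12 to 25, 1 to 9, 0 to 0 and 0 to 0 over passages 1 to 4, added against AE9a 0 to 0, 4 to 13, 20 to 30 and 9 to 21, and knockout against added 6 to 17, 1 to 5, 31 to 34 and 7 to 20. From passage 1 to 4 they were 2 to 5, 7 to 15 and 6 to 13 (AE9a, added, knockout), and for the changes of the knockout and added differences 1 to 12 and 5 to 23. The comparisons added later gave 17 to 28 and 7 to 24 for the knockout steps, 2 to 5 for AE9a to passage 2 and 17 to 30 for the change of the knockout difference to passage 2. No value here counts reads. Isg15 was the 1 member that the filter on dim genes left out.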

Other observations

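Probe sets that name several genes cover 3 of the members left out above, and their values are given as they stand. The probe set shared by Oas1a and Oas1g read 8.23 ± 0.54 (SD, n = 3) in the knockout arm at passage 1, 5.33 ± 0.37 in AE9a and 6.29 ± 0.35 in normal marrow. The one shared by Dtx3l and Parp9 read 9.62 ± 0.33, 8.24 ± 0.53 and 8.45 ± 0.22 in the same groups. The one shared by Ifi27l2a and Ifi27l2b read 6.27 ± 1.48, 4.42 ± 0.17 and 5.15 ± 0.80, with 4.68 to 7.60 on the knockout arrays, and again 6.39 ± 0.49 in the knockout arm at passage 3. Which of the named genes the signal comes from was not tested.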
